A study of Mus musculus with 10 samples.

Results

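The growth hormone, STAT5 and Igf1 axis was described by 10 genes chosen by name, which were Ghr, Jak2, Stat5a, Stat5b, Igf1, Igfals, Socs2, Cish, Bcl6, and Cux2. Members were the entries of the deposited count table whose Ensembl identifier maps to these symbols, 10 of the 21939 genes in the table. All 10 had at least 10 counts summed over the libraries and were among the 13641 genes tested.

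RNA of hepatocytes freshly isolated from 10 male mice was sequenced with the TruSeq stranded mRNA protocol, with 1 library per mouse. The age of the mice is given as 8 to 9 weeks. Control mice were C57BL6/j animals (n = 3), and the other mice carried floxed alleles of Nrf2 (Nrf2 flox/flox, labelled Nrf2 KO, n = 2), of p65 (p65 flox/flox, labelled p65 KO, n = 2), or of both genes (Nrf2:p65 double floxed, labelled DKO, n = 3). All mice, Control included, received AAV8Cre, an adeno-associated virus with Cre recombinase under the thyroxine-binding globulin promoter, which is active in hepatocytes, so that other liver cells keep both genes. Livers were perfused with Liberase TM 12 days after injection, and cells were enriched by low-speed and Percoll centrifugation without sorting. The libraries held 36170874, 37309244, and 42518454 counts in Control, 37483082 and 49897382 in Nrf2 KO, 33707165 and 36267805 in p65 KO, and 40103546, 35357766, and 36777737 in DKO. Values below are normalized counts, scaled between libraries by the trimmed mean of M-values (TMM), and stand in the order of the replicate numbers.

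Growth hormone binds its receptor on hepatocytes and activates the kinase JAK2, which phosphorylates the transcription factors STAT5a and STAT5b. Phosphorylated STAT5 enters the nucleus and drives transcription of Igf1 and Igfals, whose products circulate together, and of Cish and Socs2, whose products dampen the signal, whereas it represses the gene of the repressor BCL6. Male mice release growth hormone in pulses and females more evenly, and this pattern sets the sex-biased expression of many liver genes, including the female-biased repressor gene Cux2.

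The targeted genes were examined first. Nfe2l2, which encodes Nrf2, had 2318, 1991, and 1990.2 normalized counts in Control, 4739 and 5005 in Nrf2 KO, 1993 and 1997 in p65 KO, and 4111, 3434, and 5239.5 in DKO. Its counts were thus higher, not lower, in each mouse with floxed Nrf2 than in each mouse without, and it rose in Nrf2 KO (log2 fold change 1.21, SE 0.16, adjusted p = 0.00488) and DKO (1.02, adjusted p = 0.00347). Rela, which encodes p65, had 1221, 1276, and 1269 in Control, 1268 and 1225 in Nrf2 KO, 1183 and 1209 in p65 KO, and 1488, 1241, and 1034 in DKO. The Rela counts of p65 KO lay just below those of Control and those of DKO overlapped them, and neither passed the test (log2 fold changes -0.07 and -0.00, adjusted p = 0.765 and 0.998). A gene's count includes exons outside the deleted part, so neither gene checks the labels, and groups are named as labelled.

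The label of hepatocytes was checked against markers. Of 8 hepatocyte markers, 7 were matched in the table, with Alb the most abundant, and their summed level was 3950710, 3409150, and 4828180 in Control, 4686720 and 5416260 in Nrf2 KO, 4079040 and 3732830 in p65 KO, and 4292530, 4402680, and 4234180 in DKO. None of the 7 was called in a comparison with Control. Kupffer cell markers, led by Cd5l, summed to 338, 775, and 622 in Control, 684 and 213 in Nrf2 KO, 5234 and 3805 in p65 KO, and 2496, 1717, and 1427 in DKO. All 10 were called higher in p65 KO and 5 in DKO, against 0 in Nrf2 KO. Markers of sinusoidal endothelial cells, led by Clec4g, summed to 407, 675, and 864 in Control, 1004 and 526 in Nrf2 KO, 2704 and 2008 in p65 KO, and 1237, 1354, and 978 in DKO, with 5 of 5 called higher in p65 KO and 1 in DKO. Markers of stellate cells, led by Dcn, summed to 142, 129, and 321 in Control, 198 and 129 in Nrf2 KO, 1399 and 1412 in p65 KO, and 244, 631, and 247 in DKO, with 4 of 5 called higher in p65 KO and 1 in DKO. In every library the hepatocyte sum far exceeded those of Kupffer, endothelial, and stellate cell markers, which were highest in p65 KO. The sets hold different genes, so the sums do not measure how much RNA each cell type gave.

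Markers of blood-derived cells were near 0 in Control and Nrf2 KO. Those of monocytes and dendritic cells, led by Itgax, summed to 2.21, 5.90, and 2.80 in Control, 2.97 and 5.66 in Nrf2 KO, 70.1 and 39.7 in p65 KO, and 17.9, 39.3, and 14.9 in DKO, with 2 of 5 called higher in p65 KO. Those of neutrophils, led by Csf3r, summed to 4.42, 4.92, and 1.87 in Control, 2.97 and 5.66 in Nrf2 KO, 50.8 and 10.4 in p65 KO, and 28.4, 28.1, and 8.01 in DKO, with 1 of 4 called higher in p65 KO and Ly6g at 0 in every library. Both sets were thus higher in each mouse with floxed p65 than in any other mouse. T and NK cell markers, led by Gzma, summed to 1.104, 1.97, and 0 in Control, 0 and 0.808 in Nrf2 KO, 15.2 and 10.4 in p65 KO, and 25.2, 11.2, and 3.43 in DKO. B cell markers, led by Cd79b, summed to 1.104, 0.983, and 2.80 in Control, 2.97 and 1.62 in Nrf2 KO, 9.14 and 1.89 in p65 KO, and 3.16, 7.85, and 4.58 in DKO. Of these 2 sets, 0 genes were called by edgeR. Cholangiocyte markers, led by Sox9, summed to 227, 195, and 253 in Control, 127 and 104 in Nrf2 KO, 186 and 195 in p65 KO, and 157, 135, and 132 in DKO. Sox9 made up nearly all of this sum (226 of 227 in Control 1), and 2 of the 4 markers were tested. Erythroid markers, led by Alas2, summed to between 3133 in p65 KO 1 and 5605 in DKO 1. Alas2 made up most of that sum and hid the hemoglobin genes, of which Hbb-bs had 24.3, 71.8, and 71.9 in Control, 65.3 and 50.9 in Nrf2 KO, 47.7 and 17.01 in p65 KO, and 452, 162, and 91.5 in DKO (log2 fold change in DKO 2.06, adjusted p = 0.0732). Hba-a1 was likewise higher in each DKO mouse than in any other (2.23, adjusted p = 0.0708), Hba-a2 and Hbb-bt overlapped Control, all 4 were highest in DKO 1, and 0 of the 5 markers were called. In this bulk RNA, fewer cells of a type and less RNA per cell cannot be told apart.

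The comparisons ask how the axis differed from Control in hepatocytes labelled as lacking Nrf2, p65, or both, and each of these uses the same 3 Control libraries. A gene was called when the adjusted p was at most 0.05 and the log2 fold change at least 1 in either direction. In Nrf2 KO, 15 genes were called higher (0.11% of genes tested) and 60 lower (0.44%), 75 in all (0.55%), and 99 passed the adjusted p alone (0.726%). In p65 KO, 689 were called higher (5.05%) and 210 lower (1.54%), 899 in all (6.59%), and 2032 passed the adjusted p alone (14.9%). In DKO, 186 were called higher (1.36%) and 139 lower (1.02%), 325 in all (2.38%), and 743 passed the adjusted p alone (5.45%). These counts moved with single libraries, to 37, 40, 32, and 18 in Nrf2 KO without Control 1, Control 2, Nrf2 KO 1, and Nrf2 KO 2, to 498 and 325 in p65 KO without Control 1 and p65 KO 1, and to 147 and 193 in DKO without Control 1 and Control 2.

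Of the 10 members, edgeR called 0 in Nrf2 KO (1 at an unadjusted p under 0.05, 0 by DESeq2, and 0 by limma). In p65 KO it called 1, Cux2, which was higher (3 at an unadjusted p under 0.05, 1 by DESeq2, and 1 by limma), and Stat5b also passed the adjusted p alone. In DKO it called 0 (3 at an unadjusted p under 0.05 and 0 by limma), whereas DESeq2 called 2, Cish lower and Cux2 higher. The members had a median log2 fold change of -0.03, -0.07, and -0.04 in the knockouts of Nrf2, p65, and both, beside 0.00, 0.00, and 0.02 over all genes tested. Over the 9 members with more than 3 counts in a library of both groups it was 0.08, -0.07, and -0.10. The sign in Nrf2 KO thus changed when Cux2 was left out, as it would for any other member with a negative log2 fold change. DKO was also compared with each single knockout, where 59 genes were called against Nrf2 KO (0.433%) and 243 against p65 KO (1.78%), and edgeR called 0 members in both (3 and 2 at an unadjusted p under 0.05, and 0 by DESeq2 and by limma). The genes called against Nrf2 KO numbered 21 and 18 without Nrf2 KO 1 and 2, and those against p65 KO numbered 70, 72, and 112 without p65 KO 1, p65 KO 2, and DKO 1. The interaction, which asks if the DKO label differed from p65 KO as Nrf2 KO did from Control, was called for 62 genes (0.455%) and for 0 members (0 at an unadjusted p under 0.05, by DESeq2, and by limma). The count of 62 genes became 19, 25, and 39 without Control 1, 2, and 3, 41 and 8 without Nrf2 KO 1 and 2, 10 and 12 without p65 KO 1 and 2, and 119 without DKO 2.

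**Figure D1:**
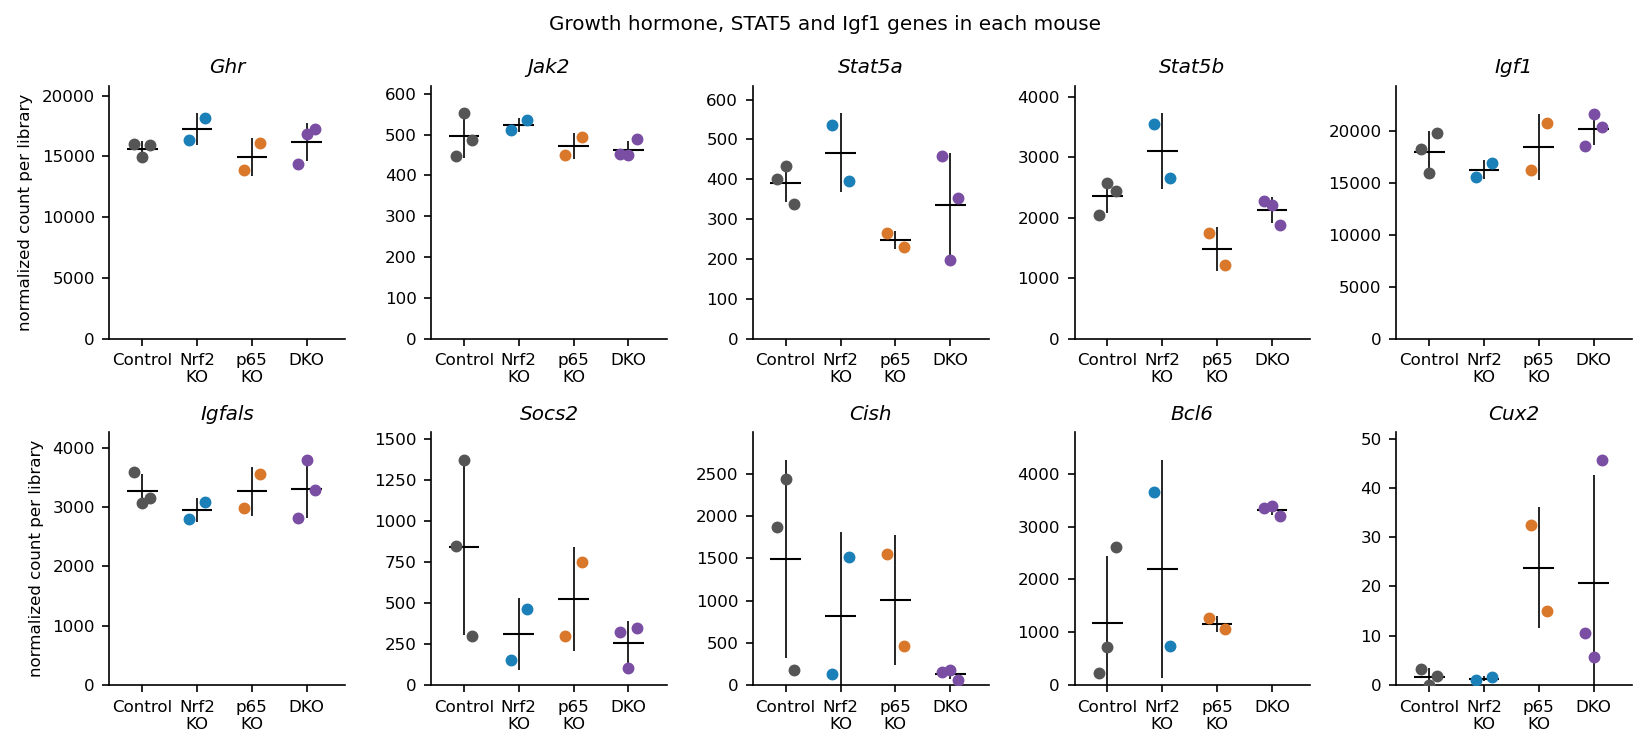
Normalized counts of the 10 genes in each mouse (vertical axes, starting at 0) by genotype (horizontal axes). Each point is 1 library, horizontal lines are means and vertical lines are 1 SD to each side, drawn no lower than 0. Ghr, Jak2, Igf1, and Igfals varied little, Socs2, Cish, and Bcl6 differed widely between Control mice, and Cux2 was highest in p65 KO and DKO.

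Ghr encodes the growth hormone receptor (ENSMUSG00000055737, chr15:3347235-3613024, minus strand, GRCm39 as for all coordinates). It had 15998, 14923.5, and 15947 normalized counts in Control, 16319.5 and 18175 in Nrf2 KO, 13856 and 16073 in p65 KO, and 14403, 16813, and 17274 in DKO. Both Nrf2 KO mice lay above all Control mice by a small margin, and the other groups overlapped Control. Against Control, the log2 fold changes of Nrf2 KO, p65 KO, and DKO were 0.14, -0.06, and 0.05 (adjusted p = 0.817, 0.772, and 0.831), and later triplets keep this order.

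Jak2, the kinase bound to the receptor (ENSMUSG00000024789, chr19:29228677-29290505, plus strand), had 448, 553, and 488 in Control, 512 and 535 in Nrf2 KO, 449 and 494 in p65 KO, and 451, 449.9, and 489 in DKO. All groups overlapped, with log2 fold changes of 0.08, -0.07, and -0.10 (adjusted p = 0.916, 0.733, and 0.641). The receptor and its kinase thus did not pass the test in any comparison with Control.

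Of the STAT5 genes, Stat5b is the major form in liver (ENSMUSG00000020919, chr11:100671556-100741589, minus strand). It had 2043, 2573, and 2440.3 normalized counts in Control, 3542 and 2653 in Nrf2 KO, 1738 and 1222 in p65 KO, and 2279.5, 2208, and 1871 in DKO. Both p65 KO mice lay below, and both Nrf2 KO mice above, each Control mouse, and DKO overlapped Control. Means were 2352 ± 276 (SD, n = 3) in Control, 3098 ± 629 (n = 2) in Nrf2 KO, 1480.2 ± 365 (n = 2) in p65 KO, and 2119.5 ± 218 (n = 3) in DKO. Stat5b fell in p65 KO by 0.67 on the log2 scale (SE 0.18, adjusted p = 0.0352), which is under the fold required for a call. In Nrf2 KO the log2 fold change was 0.40 (SE 0.18, adjusted p = 0.524) and in DKO -0.15 (adjusted p = 0.618). DKO differed from p65 KO by 0.52 (adjusted p = 0.135) and from Nrf2 KO by -0.55 (adjusted p = 0.203), and neither passed the test.

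Stat5a, the close relative beside it on the chromosome (ENSMUSG00000004043, chr11:100750177-100776065, plus strand), had 401, 434, and 338 in Control, 537 and 396 in Nrf2 KO, 264 and 231 in p65 KO, and 458, 196, and 352 in DKO. Both p65 KO mice again lay below each Control mouse, with 1 DKO mouse lower still and another above all Control mice. The log2 fold change in p65 KO was -0.66 (SE 0.29, adjusted p = 0.149), in Nrf2 KO 0.25 (adjusted p = 0.865), and in DKO -0.22 (adjusted p = 0.650). In p65 KO it passed the adjusted p with only the genotypes compared (-0.65, adjusted p = 0.0395) and without DKO 2 (-0.66, adjusted p = 0.0429), and over all 19 alternatives the adjusted p lay between 0.0395 and 0.389. The 2 genes share sequence, 10.1% of the 31-base stretches of Stat5a and 11.1% of those of Stat5b also occurring in other genes, so how reads divided between them is uncertain. Summed over both genes, the log2 fold change in p65 KO was -0.67 (adjusted p = 0.0301).

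The fall of Stat5b in p65 KO did not pass the test without Control 2, Control 3, or p65 KO 2 (log2 fold changes -0.60, -0.64, and -0.44, adjusted p = 0.0873, 0.0790, and 0.202). It did not pass with libraries scaled to equal totals either (-0.50, adjusted p = 0.131), a scaling that moved the median of well-expressed genes by 0.18 in this comparison, nor with the replicate number as a block (-0.72, adjusted p = 0.0569). Over all 19 alternatives its adjusted p lay between 0.00866 and 0.202, and every one gave a negative log2 fold change. Markers of Kupffer, endothelial, and stellate cells were higher in the same libraries, and their part in the result was not tested.

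Igf1 encodes the circulating growth factor made in hepatocytes (ENSMUSG00000020053, chr10:87693642-87772904, plus strand). Its normalized counts were 18299, 15964, and 19849 in Control, 15625 and 16947 in Nrf2 KO, 16241 and 20757 in p65 KO, and 18593, 21658, and 20397.5 in DKO. All groups overlapped Control, with the lowest mouse in Nrf2 KO and the highest in DKO. The log2 fold changes were -0.15, 0.04, and 0.16 (adjusted p = 0.841, 0.889, and 0.478).

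Igfals, whose product stabilizes circulating IGF1 in a complex with a binding protein (ENSMUSG00000046070, chr17:25084971-25100984, plus strand), had 3593, 3064, and 3145 in Control, 2806 and 3087 in Nrf2 KO, 2975 and 3555 in p65 KO, and 2819, 3799, and 3281 in DKO. These values overlapped in all groups, with log2 fold changes of -0.15, -0.00, and 0.01 (adjusted p = 0.836, 0.999, and 0.964). Neither target of the axis that makes a circulating protein passed the test in a knockout.

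The feedback genes varied far more between mice. Cish encodes a STAT5-induced inhibitor of cytokine receptor signaling (ENSMUSG00000032578, chr9:107173225-107179983, plus strand). It had 1875, 2437, and 177 normalized counts in Control, 126 and 1520.4 in Nrf2 KO, 1554 and 461 in p65 KO, and 159.9, 176, and 62.9 in DKO. Cish was high in 4 mice, Control 1 and 2, Nrf2 KO 2, and p65 KO 1, and all DKO mice lay below all Control mice, though DKO 2 lay below Control 3 by little more than 1 count. The highest mouse exceeded the lowest 13.7-fold in Control, 12.1-fold in Nrf2 KO, 3.37-fold in p65 KO, and 2.80-fold in DKO. Means were 1496 ± 1176 (SD, n = 3) in Control, 823 ± 986 (n = 2) in Nrf2 KO, 1008 ± 773 (n = 2) in p65 KO, and 133 ± 61.2 (n = 3) in DKO. The log2 fold change in DKO was -3.49 (SE 1.02, 95% interval -5.75 to -1.23, adjusted p = 0.0764), and those in Nrf2 KO and p65 KO were -0.86 and -0.57 (adjusted p = 0.875 and 0.742). In DKO, Cish was called by DESeq2 (-3.49, adjusted p = 0.0224), without the filter on low counts (adjusted p = 0.0362), and without Control 3, Nrf2 KO 1, or Nrf2 KO 2 (adjusted p = 0.0343, 0.0467, and 0.0471), and its adjusted p lay between 0.0224 and 0.176 over all 19 alternatives.

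Socs2 encodes a further STAT5-induced inhibitor, which acts on the growth hormone receptor (ENSMUSG00000020027, chr10:95219523-95253929, minus strand). It had 848, 1373, and 301 in Control, 153 and 465 in Nrf2 KO, 299 and 749.5 in p65 KO, and 323, 107, and 349 in DKO. Control 1 and 2 were the highest of all mice, and every knockout group overlapped Control through Control 3 or its own higher mice. The highest mouse exceeded the lowest 4.56-fold in Control, 3.03-fold in Nrf2 KO, 2.51-fold in p65 KO, and 3.27-fold in DKO. The log2 fold changes were -1.43 in Nrf2 KO (SE 0.70, adjusted p = 0.584), -0.68 in p65 KO (adjusted p = 0.525), and -1.69 in DKO (SE 0.62, adjusted p = 0.137).

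Bcl6 encodes a repressor that binds many STAT5 sites in male liver (ENSMUSG00000022508, chr16:23783802-23807602, minus strand). It had 221, 722, and 2608 normalized counts in Control, 3664 and 738 in Nrf2 KO, 1262 and 1052 in p65 KO, and 3361, 3386, and 3197 in DKO. The mice low in Cish among Control and Nrf2 KO, namely Control 3 and Nrf2 KO 1, were those high in Bcl6, and all DKO mice were high and lay above all Control mice. The highest mouse exceeded the lowest 11.8-fold in Control and 4.96-fold in Nrf2 KO, against 1.20-fold in p65 KO and 1.06-fold in DKO. Means were 1184 ± 1259 (SD, n = 3) in Control, 2201 ± 2069 (n = 2) in Nrf2 KO, 1157 ± 148 (n = 2) in p65 KO, and 3315 ± 103 (n = 3) in DKO. The log2 fold change was 0.89 in Nrf2 KO (adjusted p = 0.817), -0.04 in p65 KO (adjusted p = 0.983), and 1.48 in DKO (SE 0.72, adjusted p = 0.252). Without Control 3, Bcl6 was called in DKO (2.82, adjusted p = 0.0428), and over all 19 alternatives its adjusted p lay between 0.0428 and 0.439.

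The ratio of Cish to Bcl6, each per kb of transcript, set the mice apart. It was 8.21, 3.26, and 0.0658 in Control, 0.0331 and 1.99 in Nrf2 KO, 1.19 and 0.424 in p65 KO, and 0.0460, 0.0503, and 0.0190 in DKO. The ratio of Socs2 to Bcl6, also per kb, was 5.33, 2.64, and 0.160 in Control, 0.0580 and 0.874 in Nrf2 KO, 0.329 and 0.989 in p65 KO, and 0.133, 0.0437, and 0.151 in DKO. Both ratios were lowest in the same 5 mice, Control 3, Nrf2 KO 1, and the 3 DKO mice, and higher in the other 5. They share Bcl6 as denominator, which by itself was highest in these 5 mice, so their agreement is not independent. Cish alone was also lowest in these mice. Socs2 alone was not, with 299 normalized counts in p65 KO 1 against 301 in Control 3 and 349 in DKO 3. No library had a Bcl6 count between 1262 and 2608.

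**Figure D2:**
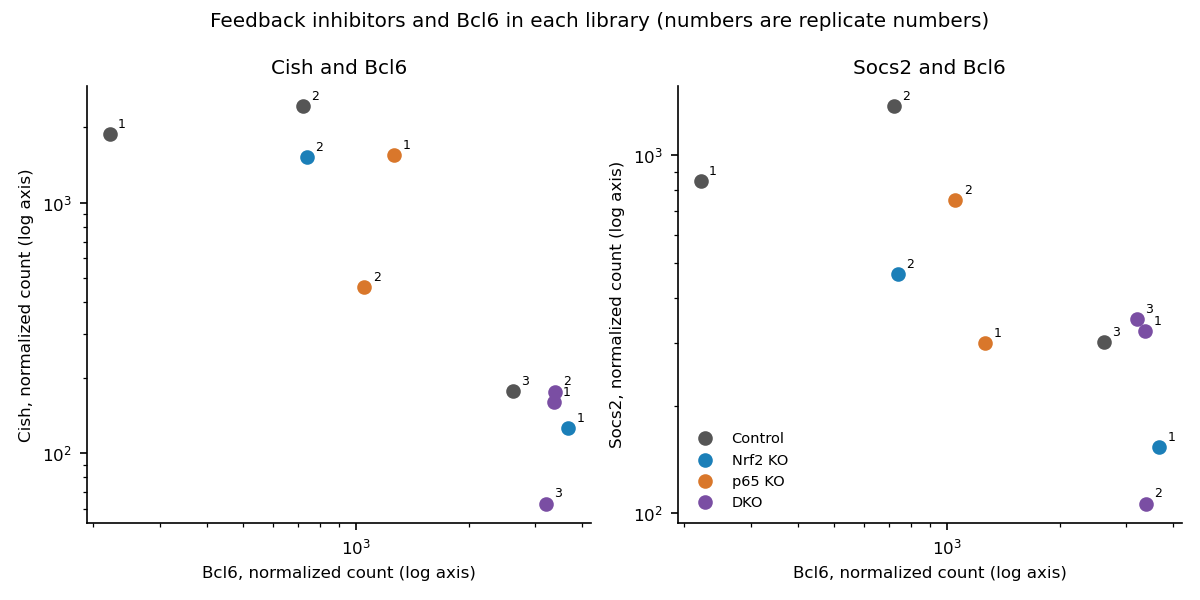
Normalized counts of Cish (left) and Socs2 (right) on the vertical axes against those of Bcl6 on the horizontal axes, all on log scales, with 1 point per library colored by genotype. Control 3 and Nrf2 KO 1 lie with the 3 DKO mice at high Bcl6 and low Cish, away from the other Control and Nrf2 KO mice.

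Correlations between Cish, Socs2, Bcl6, and Igf1 were computed over the 10 libraries for 6 pairs, with 2-sided permutation tests on log2 of the normalized count plus 1. For Cish and Bcl6, Pearson's r was -0.870 (permutation p = 0.00146, adjusted 0.00876) and Spearman's rho -0.867 (permutation p = 0.00208, adjusted 0.00900), and r was -0.891 without Control 1 and 2, the libraries farthest from the median of Cish. For Socs2 and Bcl6, r was -0.768 (permutation p = 0.00965, adjusted 0.0289) and rho -0.855 (permutation p = 0.00300, adjusted 0.00900), and r was -0.804 without Control 2 and DKO 2. Mice high in either feedback gene were thus low in Bcl6. For Cish and Socs2, r was 0.663 (permutation p = 0.0400, adjusted 0.0801), rho 0.588 (permutation p = 0.0808, adjusted 0.162), and r without Control 1 and 2 was 0.390. Igf1 had r of -0.510 with Cish, -0.216 with Socs2, and 0.267 with Bcl6 (permutation p = 0.132, 0.545, and 0.457, adjusted 0.199, 0.545, and 0.545), and rho of -0.345, -0.127, and 0.188 (permutation p = 0.332, 0.732, and 0.607, adjusted 0.498, 0.732, and 0.728). Without the 2 farthest libraries, r with Igf1 was -0.430, 0.515, and 0.219 in the same order.

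With each genotype centered on its own mean, r was -0.784 for Cish and Bcl6 (exact permutation p = 0.292), -0.628 for Socs2 and Bcl6 (exact permutation p = 0.174), and 0.490 for Cish and Socs2 (exact permutation p = 0.333), with an adjusted p of 0.500 for each. The pairs with Igf1 gave -0.409, -0.172, and 0.0345 (exact permutation p = 0.319, 0.688, and 0.938). The smallest p that permuting within genotypes can give is 0.00694. The 2 correlations with Bcl6 that passed over all libraries thus did not pass within genotypes, and r was not computed on each side of the gap in Bcl6, which had 5 libraries on each side.

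Cux2 encodes a repressor found mainly in female liver (ENSMUSG00000042589, chr5:121994429-122188521, minus strand). It was near 0 in Control with 3, 0, and 2 counts and in Nrf2 KO with 1 and 2 counts, against 32 and 16 counts in p65 KO and 10, 5, and 40 in DKO. As normalized counts these were 3.31, 0, and 1.87 in Control, 0.989 and 1.62 in Nrf2 KO, 32.5 and 15.1 in p65 KO, and 10.5, 5.61, and 45.8 in DKO. Each of the 5 mice with floxed p65 lay above each of the 5 others, with the highest and one of the lowest of these values both in DKO. The ratio of summed counts to Control, corrected for depth, was 14.1 in p65 KO (48 against 5 counts, 95% counting interval 5.63 to 45.3), 12.1 in DKO (55 against 5 counts, 4.89 to 38.8), and 0.799 in Nrf2 KO (3 against 5 counts, 0.124 to 4.11), with exact Clopper-Pearson intervals that cover counting error only.

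Cux2 rose in p65 KO (log2 fold change 3.72, SE 1.08, adjusted p = 0.0421, higher in 2 of 2 mice). The 5 mice without floxed p65 held 8 counts in all, so that Cux2 met the minimum of 10 summed counts only through the mice in which it was high, though it was called with no filter as well. In DKO the log2 fold change was 3.51 (SE 1.03, adjusted p = 0.0759), called by DESeq2 (3.60, adjusted p = 0.0159), with an adjusted p between 0.0159 and 0.219 over all 19 alternatives. In p65 KO the call was lost without Control 1, 2, or 3 (adjusted p = 0.0764, 0.0982, and 0.0950), without Nrf2 KO 1 or 2 (adjusted p = 0.0577 and 0.0578), and without p65 KO 1 or 2 (adjusted p = 0.225 and 0.0654), with log2 fold changes between 3.07 and 4.47. It was kept without each of the 3 DKO libraries in turn and under all 9 alternatives that left out no library, and over all 19 the adjusted p lay between 0.0109 and 0.225. The summed markers of Kupffer cells, of monocytes and dendritic cells, of neutrophils, and of T and NK cells were also higher in each of these 5 mice than in each other mouse, those of endothelial, stellate, and B cells not in all, and their part in the result was not tested.

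Among 10176 genes averaging 50 or more normalized counts, the members left out, those whose pattern over the 10 libraries was most like that of Cux2 were Cdt1 (r = 0.941), Wdr62 (0.925), and Dda1 (0.923). Cdt1, which licenses DNA replication, had 53.0, 46.2, and 53.2 normalized counts in Control, 59.3 and 70.3 in Nrf2 KO, 124 and 111 in p65 KO, and 101, 69.6, and 130.4 in DKO. It was highest where Cux2 was highest, in DKO 3 and p65 KO 1. For Cish and Bcl6 the same search was added after their values were seen, and the closest genes were Myc (r = 0.950), Rnd3 (0.942), and Phlda1 (0.908) for Cish and Ttf1 (0.941), Poldip3 (0.914), and Rrp7a (0.897) for Bcl6. Myc, a growth-promoting transcription factor gene, had 440, 1178, and 169 in Control, 77.1 and 407 in Nrf2 KO, 718 and 192 in p65 KO, and 65.2, 102, and 66.4 in DKO. As for Cish, Control 1 and 2, Nrf2 KO 2, and p65 KO 1 were the highest mice and DKO was low.

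The members differed widely in level per kb of transcript. In Control, Ghr was highest with 3476 ± 135 normalized counts per kb (SD, n = 3), followed by Igf1 with 2550.2 ± 276 and Igfals with 1220.1 ± 106, and these 3 did not overlap. Stat5b with 462 ± 54.2, Cish with 410.3 ± 323, Bcl6 with 336 ± 357, and Socs2 with 331 ± 211 came next and did not differ beyond their spread. Stat5a with 98.8 ± 12.3 and Jak2 with 90.2 ± 9.58 had lower means but overlapped each other, Cish, and Bcl6, and Cux2 was lowest with 0.186 ± 0.179. Ghr, Igf1, and Igfals kept the first places per kb in every genotype. Bcl6 had the next mean in each knockout, with 624 ± 587 per kb beside Stat5b with 608 ± 123 in Nrf2 KO, 328 ± 42.1 beside 291 ± 71.6 in p65 KO, each overlapping, and 940.4 ± 29.2 in DKO, where it lay above Stat5b (416 ± 42.8). In DKO the mean of Cish, 36.5 ± 16.8, was lower than all but that of Cux2, and its values overlapped those of Socs2.

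Mice of 1 genotype differed more in the feedback genes and Bcl6 than in most genes. The SD of log2 values within genotypes was 1.73 for Cish, 1.23 for Bcl6, and 1.04 for Socs2, against a median of 0.18 over 10185 genes averaging 50 or more normalized counts. From the top of these genes they ranked 31, 54, and 78. The same SD was 0.12 for Ghr, 0.11 for Jak2, 0.16 for Igf1, 0.17 for Igfals, 0.23 for Stat5b, and 0.40 for Stat5a.

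Sequence upstream of the members was searched for TTCNNNGAA, the palindromic core to which STAT5 binds, which reads the same on both strands. In the 250 bases before the transcript start it was present in 3 of 10 members, Jak2, Igfals, and Bcl6, and in 918 of 13630 promoters of tested genes (6.74%). The Igfals promoter (chr17:25096929-25097178, plus strand) holds it 32 bases before the start and the Bcl6 promoter (chr16:23807603-23807852, minus strand) 118 bases before it. The promoter of Socs2 (chr10:95252973-95253222, minus strand) holds no match in this window. The 3 are shown since Socs2 and Bcl6 differed widely between mice and Igfals little, with matches in capitals, and a match only describes the letters.
Igfals: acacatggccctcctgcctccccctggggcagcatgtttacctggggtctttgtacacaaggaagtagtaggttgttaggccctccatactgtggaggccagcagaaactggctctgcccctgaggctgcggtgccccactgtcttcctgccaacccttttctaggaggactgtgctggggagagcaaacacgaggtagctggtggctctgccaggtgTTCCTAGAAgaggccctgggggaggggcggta
Bcl6: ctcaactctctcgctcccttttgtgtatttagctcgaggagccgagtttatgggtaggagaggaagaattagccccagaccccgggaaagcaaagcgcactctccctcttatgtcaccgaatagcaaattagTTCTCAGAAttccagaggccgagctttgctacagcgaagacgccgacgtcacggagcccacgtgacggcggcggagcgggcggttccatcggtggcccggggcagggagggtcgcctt
Socs2: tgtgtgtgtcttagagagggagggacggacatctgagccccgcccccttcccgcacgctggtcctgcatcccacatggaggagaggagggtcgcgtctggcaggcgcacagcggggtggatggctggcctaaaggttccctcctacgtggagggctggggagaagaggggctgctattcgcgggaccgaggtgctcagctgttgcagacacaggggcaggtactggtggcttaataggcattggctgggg

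Other genes of the pathway were taken from lists. Genes named from them follow the rule given with the methods. Mup20, and further genes where few were called, are named after their values were seen. Among 21 genes of receptor-proximal signaling and feedback, edgeR called 0 in Nrf2 KO (0 at an unadjusted p under 0.05, 0 by DESeq2 and by limma), 2 higher in p65 KO (2 by each other tool), and 0 in DKO (3 at an unadjusted p under 0.05, 0 by DESeq2 and by limma). The count in p65 KO was 1 without Control 1, Control 3, or p65 KO 2 and 0 without Control 2 or p65 KO 1 or with the replicate block. The median log2 fold changes were 0.06, 0.07, and 0.13, and 0.00 to 0.10, 0.06 to 0.24, and 0.09 to 0.18 with 1 library left out. Socs3, a feedback inhibitor induced mainly through STAT3, had 235, 352, and 212 normalized counts in Control, 84.0 and 919 in Nrf2 KO, 3963 and 807 in p65 KO, and 158, 181, and 270.04 in DKO. Both p65 KO mice were above all Control and DKO mice, but Nrf2 KO 2 lay above p65 KO 2. Socs3 rose in p65 KO (log2 fold change 3.16, SE 0.78, adjusted p = 0.0241) and was lower in DKO than in p65 KO (-3.56, adjusted p = 0.0364), while its interaction did not pass by edgeR (-4.48, adjusted p = 0.121). For the interaction, DESeq2 called 1 gene of this list lower, against 0 by edgeR and by limma.

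The calls of Socs3 changed when single libraries were left out, and with the replicate number as a block. In p65 KO, Socs3 was not called without Control 1, 2, or 3 or p65 KO 1 (lowest log2 fold change 1.60, adjusted p up to 0.305). The lower Socs3 of DKO against p65 KO was lost without any of Control 1, 2, and 3, p65 KO 1, and the 3 DKO mice (adjusted p up to 0.285), and by limma and with the block.

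In the IGF system, 10 of 15 listed genes were tested, and 0 were called by edgeR in Nrf2 KO (3 at an unadjusted p under 0.05, 0 by DESeq2 and by limma). In p65 KO 3 were called higher and 1 lower, and in DKO 1 higher (4 and 1 in p65 KO and 1 and 0 in DKO by DESeq2 and by limma). Median log2 fold changes were 0.26, 1.31, and 0.81, or 0.31, 0.85, and 0.77 over the 9 genes with more than 3 counts in a library of both groups. The median in Nrf2 KO was 0.14 without Nrf2 KO 1, that in p65 KO was 0.85 without DKO 1 or DKO 2 and 0.67 with a mean of 10 counts, and that in DKO was 0.52 with a mean of 10 counts and 0.15 without DKO 2. Igfbp3, the main partner of circulating IGF1, had 7.73, 5.90, and 8.41 in Control, 12.9 and 5.66 in Nrf2 KO, 119 and 89.8 in p65 KO, and 17.9, 47.1, and 21.7 in DKO. All mice with floxed p65 lay above the others, and Igfbp3 rose in p65 KO (log2 fold change 3.80, SE 0.53, adjusted p = 0.00221) and in DKO (1.96, SE 0.50, adjusted p = 0.0485). Igfbp7, a binding protein of blood vessels, had 109, 129.8, and 187 in Control, 162 and 109.9 in Nrf2 KO, 466 and 498 in p65 KO, and 224, 343, and 159 in DKO. It was highest in p65 KO, where it rose by 1.76 (SE 0.31, adjusted p = 0.00614), while DKO overlapped Control.

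Igfbp5, an IGF-binding protein of mesenchymal cells, had 24.3, 13.8, and 10.3 in Control, 7.91 and 4.85 in Nrf2 KO, 39.6 and 80.3 in p65 KO, and 31.6, 30.3, and 28.6 in DKO. It rose in p65 KO by 1.90 (SE 0.49, adjusted p = 0.0269). Igfbp1, a binding protein of hepatocytes that insulin represses, had 17755, 10527, and 5209 in Control, 16905 and 12141 in Nrf2 KO, 3414 and 1044 in p65 KO, and 4278, 9824, and 4559 in DKO. Both p65 KO mice lay below all others, and Igfbp1 fell in p65 KO by 2.32 (SE 0.61, adjusted p = 0.0300). Igfbp3 and Igfbp7 were called in p65 KO under all 19 alternatives, but Igfbp3 was called in DKO under only 7, losing the call with any library but DKO 1 left out (adjusted p up to 0.137). In p65 KO, Igfbp5 was not called without Control 2 or 3 or either p65 KO mouse or with the replicate block (adjusted p up to 0.208), nor Igfbp1 without Control 1 or 2 or p65 KO 2 (adjusted p up to 0.141). The binding protein genes that rose were highest in the libraries with the highest endothelial and stellate cell markers, whose part in the result was not tested.

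Sex-biased liver genes respond to the pattern of growth hormone. Of 16 male-biased genes, edgeR called 3 lower in Nrf2 KO (Cyp4a12b, Ugt2b1, and Keg1), 4 lower in p65 KO (Cyp4a12a, Cyp4a12b, Elovl3, and Mup20), and 5 lower in DKO (Cyp4a12a, Cyp4a12b, Hsd3b5, Elovl3, and Keg1). In DKO 1 was called higher, Moxd1, which had at most 1 count in each Control library. It thus met the minimum of 10 summed counts through mice other than Control. DESeq2 called 5, 4, and 5 lower and limma 3, 4, and 5, with 2 and 1 higher in DKO. The number called lower in Nrf2 KO was 1 without Nrf2 KO 1, 0 without Nrf2 KO 2, and 2 without Control 1 or with the replicate block, and in p65 KO it was 1 without p65 KO 1. With any 1 of the Control mice or DKO 1 left out, 0 were called higher in DKO. Their median log2 fold changes were -0.54, -0.29, and -0.41, or -0.57, -0.33, and -0.56 over the 15 genes with more than 3 counts in a library of both groups, against 0.01, -0.02, and 0.01 over all genes so counted. With 1 library left out, the median over the 16 genes ran from -1.01 to -0.24 in Nrf2 KO, from -0.51 to -0.14 in p65 KO, and from -0.60 to -0.20 in DKO.

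Keg1, an acyltransferase-like gene, had 14754, 11733, and 11301 normalized counts in Control, 3663 and 3348 in Nrf2 KO, 7519.9 and 10562 in p65 KO, and 3134, 4466, and 3715 in DKO. Each mouse with floxed Nrf2 lay below each mouse without, and Keg1 fell in Nrf2 KO by 1.85 (SE 0.20, adjusted p = 0.00162) and in DKO by 1.74 (SE 0.17, adjusted p = 0.000668). Elovl3, a fatty acid elongase, had 21276, 18600.2, and 11076 in Control, 16976 and 5848 in Nrf2 KO, 1424 and 1612 in p65 KO, and 8165, 3659, and 4230.3 in DKO. It was lowest in p65 KO, where it fell by 3.48 (SE 0.52, adjusted p = 0.00293), and it fell in DKO by 1.67 (adjusted p = 0.0386). Hsd3b5, a steroid-metabolizing enzyme, had 11528, 9308, and 9972 in Control, 11583 and 13038 in Nrf2 KO, 6182 and 8350.4 in p65 KO, and 4801, 4138, and 3005 in DKO. All DKO mice lay below every other mouse, with a fall of 1.37 against Control (SE 0.18, adjusted p = 0.00259) and a log2 fold change of -1.63 against Nrf2 KO (adjusted p = 0.00417), though 26.5% of its 31-base stretches occur in other genes.

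Cyp4a12b, a fatty acid hydroxylase, had 4224, 4313, and 3488 in Control, 1053 and 1015 in Nrf2 KO, 1136 and 2195 in p65 KO, and 1039, 972, and 1528 in DKO. It was lower than Control in every knockout mouse, with log2 fold changes of -1.95, -1.27, and -1.76 (adjusted p = 0.00949, 0.0131, and 0.00292). Because 62.7% of its 31-base stretches occur in Cyp4a12a, its count is uncertain, and the sum of both genes was 22073, 20595, and 19642 in Control, 17883 and 18332 in Nrf2 KO, 6318 and 12166 in p65 KO, and 5728, 8604, and 9241 in DKO. The sum was lower than Control by a small margin in Nrf2 KO and by a wide one in mice with floxed p65. Mup20, a male pheromone gene chosen after its values were seen, had 483369, 277793, and 346555 in Control, 113227 and 159764 in Nrf2 KO, 95451 and 131884 in p65 KO, and 268650, 315335, and 155592 in DKO. Both single knockouts lay below Control and DKO overlapped it, with a log2 difference from Control of -1.44 in Nrf2 KO (adjusted p = 0.100), a fall of 1.70 in p65 KO (adjusted p = 0.00960), and an interaction of 2.55 (SE 0.46, adjusted p = 0.0452). The interaction was not called under 10 of 18 alternatives, namely by limma, with a mean of 10 counts, and without any 1 of the Control, Nrf2 KO, and p65 KO mice or DKO 1, with adjusted p up to 0.184. Of its 31-base stretches 44.3% occur in other genes.

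In Control comparisons, Keg1, Hsd3b5, and Cyp4a12b in DKO and Elovl3 in p65 KO were called under all 19 alternatives. Lost calls were Keg1 in Nrf2 KO without Nrf2 KO 2 (adjusted p = 0.0603), Cyp4a12b in Nrf2 KO without either Nrf2 KO mouse (adjusted p up to 0.191), and Cyp4a12b and Mup20 in p65 KO without p65 KO 1 (adjusted p = 0.0916 and 0.101). Elovl3 in DKO lost its call without Control 1 or 2, either p65 KO mouse, DKO 2, or DKO 3 (adjusted p up to 0.132), and Hsd3b5 of DKO against Nrf2 KO without Nrf2 KO 2 (adjusted p = 0.0517).

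**Figure D3:**
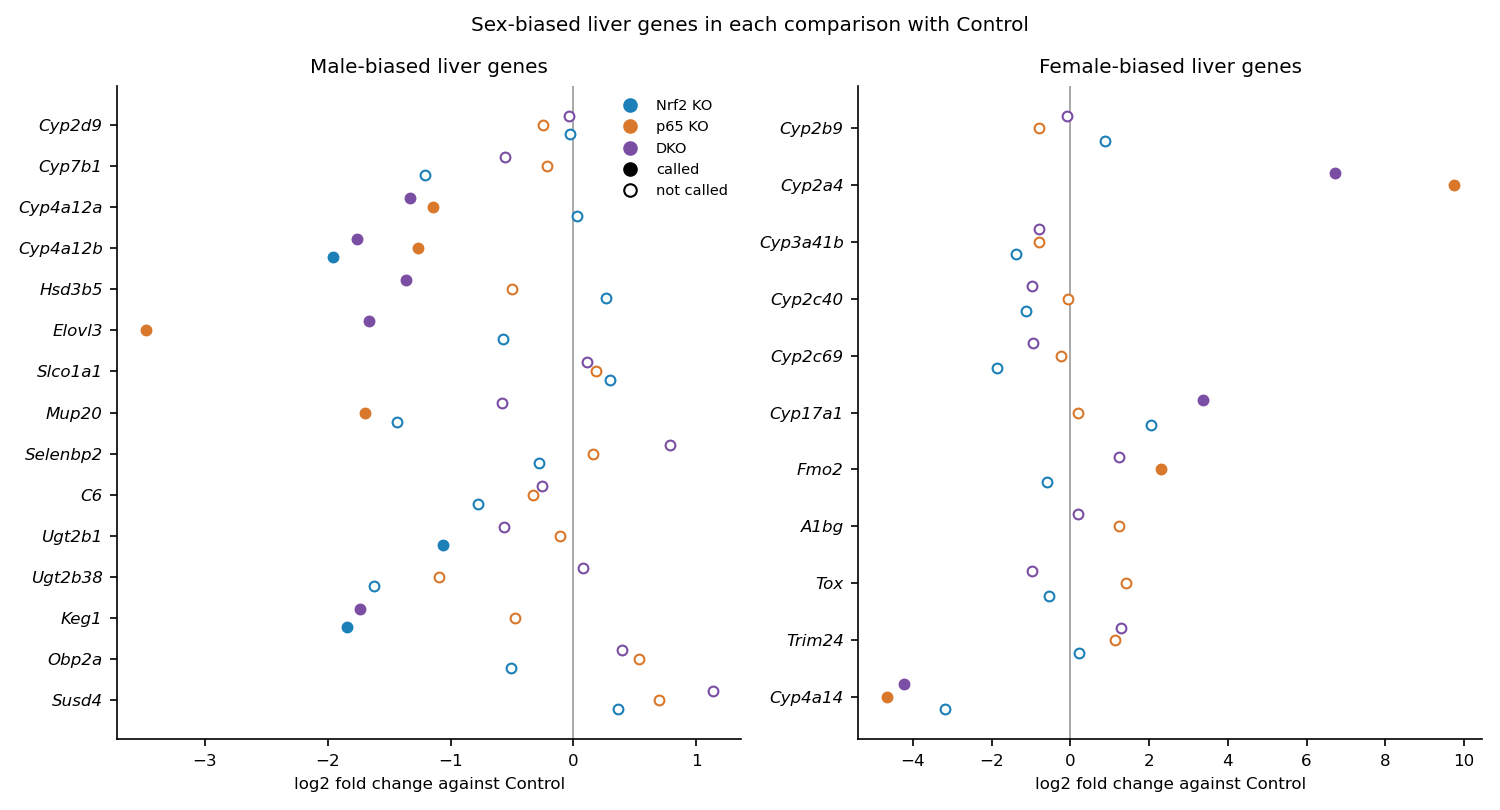
Log2 fold changes against Control (horizontal axes) of male-biased (left) and female-biased (right) liver genes with more than 3 counts in a library of both groups, colored by knockout. Filled points were called and open points were not, and each called male-biased gene drawn lies below 0, while Moxd1, called higher in DKO, and the female-biased Cyp2b13, called higher in p65 KO, are not drawn because no Control library had more than 1 count.

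Of 21 female-biased genes 17 were tested, and edgeR called 0 in Nrf2 KO (2 at an unadjusted p under 0.05, 1 higher and 1 lower by DESeq2, 0 by limma), or 1 higher without DKO 2, with no filter, or with only the genotypes compared. In p65 KO 3 were called higher (Cyp2b13, Cyp2a4, and Fmo2) and 1 lower (Cyp4a14), and in DKO 2 higher (Cyp2a4 and Cyp17a1) and 1 lower (Cyp4a14). DESeq2 called 2 higher in each of these and limma 4 and 1. Cyp2b13 had at most 1 count in each Control library and met the minimum of 10 summed counts through mice other than Control. The number higher in p65 KO was 1 without Control 1, Control 2, or p65 KO 2, 2 without p65 KO 1, and 5 with only the genotypes compared, and in DKO it was 1 without any 1 of the Control mice, with the replicate block, or with only the genotypes compared. Median log2 fold changes were -0.59, 0.00, and 0.19, or -0.59, 0.19, and -0.07 over genes with more than 3 counts in a library of both groups. With 1 library left out they ran from -0.92 to -0.03 in Nrf2 KO, from 0.00 to 0.71 in p65 KO, and from -1.42 (without DKO 3) to 0.80 (without Control 3) in DKO, where the sign changed. Cyp2a4, a steroid hydroxylase, had 8.83, 4.92, and 47.6 normalized counts in Control, 2.97 and 0.808 in Nrf2 KO, 18096 and 17985 in p65 KO, and 1648, 5039, and 11.4 in DKO. It rose in p65 KO (log2 fold change 9.73, SE 1.62, adjusted p = 0.00478) and in DKO (6.72, SE 1.47, adjusted p = 0.0268), where DKO 3 was as low as Control. Since 58.0% of its 31-base stretches occur in other genes, mostly Cyp2a5, its count is uncertain, and the sum with Cyp2a5 was 10075, 4664, and 5201 in Control, 1062 and 1898 in Nrf2 KO, 47023 and 53995 in p65 KO, and 3797, 7577, and 9589 in DKO. By this sum p65 KO lay far above Control, Nrf2 KO lay below it, and DKO overlapped it.

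Cyp17a1, an enzyme of androgen synthesis, had 85.0, 125, and 191 in Control, 417 and 698 in Nrf2 KO, 129 and 178 in p65 KO, and 1661, 534, and 1960.1 in DKO. Each mouse with floxed Nrf2 lay above each mouse without, and Cyp17a1 rose in DKO (log2 fold change 3.37, SE 0.46, adjusted p = 0.00326). Cyp4a14, a fatty acid hydroxylase, had 11401, 14078, and 29874 in Control, 2992 and 1094 in Nrf2 KO, 729 and 729 in p65 KO, and 108, 678, and 2189 in DKO. All knockout mice lay below all Control mice, and Cyp4a14 fell in p65 KO by 4.66 (adjusted p = 0.0166) and in DKO by 4.22 (adjusted p = 0.0208). Fmo2, a monooxygenase, had 26.5, 23.6, and 57.9 in Control, 30.6 and 17.8 in Nrf2 KO, 108 and 251 in p65 KO, and 69.4, 40.4, and 149 in DKO. It was highest in p65 KO 2 and rose in p65 KO by 2.31 (SE 0.58, adjusted p = 0.0245).

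Cyp2a4 in p65 KO and Cyp17a1 in DKO were called under all 19 alternatives. Calls were lost for Cyp2a4 in DKO without any 1 of the Control mice or DKO 2 (adjusted p up to 0.110), by limma, with the replicate block, and with only the genotypes compared (adjusted p up to 0.129 over all), for Cyp4a14 in p65 KO without either p65 KO mouse (adjusted p up to 0.129) and in DKO without DKO 2 (adjusted p = 0.0607), and for Fmo2 in p65 KO without Control 1 or 2 or p65 KO 2 (adjusted p up to 0.174).

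Of 10 transcription factor genes that act with STAT5 or set sex-biased expression in liver, edgeR called 0 in each knockout (1, 3, and 4 at an unadjusted p under 0.05, 0 by DESeq2 and by limma), with median log2 fold changes of -0.23, 0.08, and -0.15. Leaving out 1 library gave medians of -0.33 to -0.03 (without Control 2) in Nrf2 KO, 0.03 to 0.26 in p65 KO, and -0.23 to -0.14 in DKO. It called 2 lower in DKO without Control 3, and 1 higher in p65 KO without DKO 2 or with only the genotypes compared. Onecut1 and Cebpa were chosen after their values were seen. Onecut1, a hepatocyte factor gene induced by growth hormone, had 1260.0, 2407, and 334 in Control, 212 and 767 in Nrf2 KO, 1004 and 1527 in p65 KO, and 399, 511, and 292 in DKO. Control 3, Nrf2 KO 1, and all DKO mice were its 5 lowest, the same mice that were low in the ratio of Cish to Bcl6, and its log2 fold change in DKO was -1.74 (adjusted p = 0.127). As 37.3% of its 31-base stretches occur in other genes, its count is uncertain. Cebpa, a liver-enriched factor gene, had 9581, 8272, and 9306 in Control, 8128 and 10754.5 in Nrf2 KO, 14724 and 14805 in p65 KO, and 8649, 6579.8, and 10428 in DKO. It was highest in p65 KO, where it rose by 0.71 (SE 0.18, adjusted p = 0.0277).

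Of 5 lipid genes that hepatic growth hormone signaling restrains, edgeR called 0 in each knockout (1 at an unadjusted p under 0.05 in each, 1 lower by DESeq2 in Nrf2 KO and 0 in the others, and 0 by limma), with median log2 fold changes of -0.60, 0.38, and -0.89. With 1 library left out the medians ran from -0.87 to -0.44, from 0.08 (without p65 KO 2) to 0.64, and from -1.63 (without DKO 3) to -0.55. It called 1 lower in DKO without DKO 3. Cd36, a fatty acid transporter gene named after its values were seen, had 183, 175, and 247 in Control, 160.2 and 117 in Nrf2 KO, 363 and 312 in p65 KO, and 88.4, 158, and 213 in DKO. Both p65 KO mice were the highest, but the difference from Control did not pass the test (0.74, SE 0.31, adjusted p = 0.125).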

How the data were processed

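The deposited file holds 1 estimated count per gene and library, which the authors made with Salmon 1.10.3 against GRCm39 and GENCODE M33 and rounded to whole numbers, and the submitters' notes name DESeq2 1.42.1. The file is named normalized, but totals and size factors (0.879 to 1.26) differ between libraries, so values were used as estimated counts. The summing of transcripts to genes is not described. Of 21939 identifiers, 21926 matched GENCODE M39 (GRCm39), and 6302 genes were at 0 in every library.

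All 4 genotypes were fitted together with edgeR 4.0.16 in R 4.3.3 (TMM, at least 10 counts summed over libraries, quasi-likelihood test, Benjamini-Hochberg adjustment over the 13641 genes tested). Log2 fold changes are against Control unless another group is named. P-values of edgeR weigh a difference between groups against a spread between mice estimated from all 4 genotypes together, not from the groups compared alone. Replicates differed by more than sampling noise (chi-square per degree of freedom 46.9 to 215).

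Named genes were all members, Nfe2l2 and Rela, up to 4 called genes per list by smallest adjusted p, and for each called member the 3 genes with the highest r. Mup20, Onecut1, Cebpa, and Cd36 were added after their values were seen. Members and lists were chosen with earlier results of these data known. The lists were receptor-proximal signaling, the IGF system, male-biased genes, female-biased genes, transcription factors, lipid genes, and cell type markers, of which the hepatocyte marker Tf had no match.

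Alternatives were DESeq2 1.42.0, limma 3.58.1 on log2 of the normalized count plus 1, no filter, a mean of 10 counts, equal totals, upper quartile, DESeq2 size factors in edgeR, a replicate block, only the genotypes compared, and each library left out. Correlations used scipy 1.17.1 in Python 3.11.15 with 100000 resamples and plots matplotlib 3.10.9. Code was tested on simulated data. Promoters and 31-base stretches were read from GRCm39 and GENCODE M39.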

Additional observations from a re-analysis of the deposited data

Results flagged for a closer look

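For the male pheromone gene Mup20, the effect of losing Nrf2 differed with and without p65 by the interaction test of edgeR (log2 difference 2.55, SE 0.46, adjusted p = 0.0452). The call was lost under 10 of 18 alternatives, with adjusted p up to 0.184. Of its 31-base stretches, 44.3% occur in other genes.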

How the results depend on the processing

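Over the members and the 5 comparisons of 2 genotypes, 887 of 955 alternative values kept their direction and their side of the threshold of adjusted p, 12 no longer passed it, 11 newly passed it, and 45 changed sign, of which 0 had an adjusted p of at most 0.05. The interaction is not in these counts, and 0 members were called in it under its 18 alternatives, but 8 of 10 changed sign, over ranges of -0.30 to 0.08 for Ghr, -0.10 to 0.46 for Stat5a, -0.15 to 0.40 for Stat5b, -0.10 to 0.30 for Igfals, -0.16 to 1.44 for Socs2, -2.94 to 0.66 for Cish, -0.69 to 2.20 for Bcl6, and -1.86 to 0.77 for Cux2. The count of members called in p65 KO was 2 by adjusted p without a fold, and between 0 and 1 with 1 library left out, 0 without any of the Control, Nrf2 KO, or p65 KO mice. In DKO it was 2 by DESeq2, 1 with no filter, and between 0 and 2 with 1 library left out (2 without Control 3, 1 without Nrf2 KO 1 or 2). Of DKO against p65 KO it was 1 with only the genotypes compared (Bcl6, log2 fold change 1.53, adjusted p = 0.00753, against 0.00753 to 0.555 over all alternatives). Centered on genotypes, r was -0.784 for Cish and Bcl6 and -0.628 for Socs2 and Bcl6. The causes were not tested.

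The log2 fold changes below changed sign. With equal totals, Ghr was 0.12, Jak2 0.099, Igfals 0.18, and Bcl6 0.15 in p65 KO, Ghr -0.040 and Igfals -0.071 in DKO, and Ghr -0.16, Igf1 -0.14, and Igfals -0.25 in DKO against p65 KO, where this scaling moved the median of well-expressed genes by -0.27. In p65 KO, Igfals was also 0.014 by DESeq2 and with its size factors, 0.011 with only the genotypes compared, 0.016 with a mean of 10 counts, and 0.017 with the upper quartile, and Bcl6 was 0.62 by limma. With the replicate block, Cux2 was 0.61 in Nrf2 KO, Bcl6 0.73 in p65 KO, and Socs2 0.23 in DKO against Nrf2 KO. Whether the replicate numbers pair the libraries could not be told. Correlations of genotype-centered values ran from -0.232 to 0.113 for same numbers and from -0.170 to 0.232 for different numbers. In a group of 2 mice the centered values mirror each other, so these correlations cannot decide it.

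With 1 library left out, sign changes fell in these ranges of log2 fold change. In Nrf2 KO, Cish ran from -3.57 to 0.024 (without Nrf2 KO 2 and 1), Bcl6 from -0.68 to 2.22 (without Nrf2 KO 1 and Control 3), and Cux2 from -0.89 to 0.43 (without Control 2 and 1). In p65 KO, Ghr ran from -0.17 to 0.042, Igf1 from -0.15 to 0.20, and Igfals from -0.13 to 0.12 (each without p65 KO 2 and 1), Jak2 from -0.14 to 0.011 (without p65 KO 2 and Control 2), Cish from -1.70 to 0.056 (without p65 KO 1 and 2), and Bcl6 from -0.53 to 1.29 (without Control 1 and 3). In DKO, Stat5a ran from -0.51 to 0.053 (without DKO 1 and 2) and Igfals from -0.099 to 0.12 (without DKO 2 and 1). Of DKO against Nrf2 KO, Socs2 ran from -0.84 to 0.76 and Cish from -3.51 to 0.086 (without Nrf2 KO 1 and 2), and Bcl6 from -0.14 to 2.17 (without Nrf2 KO 2 and 1). Of DKO against p65 KO, Jak2 ran from -0.094 to 0.045, Igf1 from -0.039 to 0.32, and Igfals from -0.11 to 0.15 (each without p65 KO 1 and 2), and Cux2 from -1.54 to 0.44 (without DKO 3 and p65 KO 1).

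Of all genes, DESeq2 called 135 in Nrf2 KO against 75 and 534 in DKO against 325, and p65 KO had 325 without p65 KO 1 (187 higher and 138 lower) against 899. In DKO, where 186 were higher and 139 lower, more were lower with equal totals (153 and 177), the replicate block (109 and 128), only the genotypes compared (102 and 113), and without Control 1 (63 and 84), Control 2 (89 and 104), Control 3 (129 and 146), or p65 KO 1 (130 and 132). Against Nrf2 KO, where 59 were called in DKO, DESeq2 called 296, and 112 were called with no filter, 37 with the replicate block, and 18 with only the genotypes compared. Against p65 KO, with 243, DESeq2 called 453, and 504 were called with equal totals and 105 with only the genotypes compared. For the interaction, with 62, DESeq2 called 249, and 137 were called with no filter and 118 with equal totals. With 2 mice in a group, leaving out 1 leaves a lone mouse that is assumed to vary like the others. At 0 to 3 counts per library, only a large difference in Cux2 between Control and Nrf2 KO was detectable, the 95% counting interval of their ratio being 0.124 to 4.11.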
